A study of Mus musculus with 89 samples.

Results

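To find genes that depend on Esrrb more than on Nr5a2, or the reverse, mouse embryonic stem cells (ESCs) that had lost one of these transcription factors (TFs) were set directly against cells that had lost the other. The comparison rests on 4 RNA-seq libraries grown in FCS/LIF, 2 without Esrrb (−E) and 2 without Nr5a2 (−N), out of 20 RNA-seq libraries and 89 samples in the series. All groups carry the EKOiE background, in which both endogenous Esrrb alleles are disrupted and a doxycycline (Dox)-inducible Flag-tagged Esrrb transgene replaces them. Control cells (+E+N, 2 libraries) were kept with Dox at 1 µg/ml, and −E cells are the same line 2 days after Dox was withdrawn. The −N cells are EKOiE NrKO, a derivative with exon 4 of Nr5a2 disrupted on both alleles, and they were kept with Dox. More than 1 NrKO clone was made, and the labels do not say which was sequenced. The study describes RNA-seq reads of the disrupted alleles in clone 4, without naming libraries or medium. Cells of the NrKO line 2 days after withdrawal (−E−N, 2 libraries) entered the fit but are not part of the comparison. In −E against −N, the TF that is missing, the presence of Dox and the line itself therefore all differ and cannot be told apart. FCS/LIF is serum-containing medium with leukaemia inhibitory factor (LIF), in which naive pluripotency is heterogeneous. In 2i/LIF, inhibitors of Mek and Gsk3 replace serum, and the same 2 states were available there in 3 libraries each.

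Esrrb and Nr5a2 are orphan nuclear receptors, and both bind DNA as monomers through an extended half-site. Esrrb (oestrogen-related receptor beta) is a component of the naive pluripotency network that also comprises Klf4, Tfcp2l1, Tbx3 and Zfp42. Nr5a2 (liver receptor homologue 1) is best known for control of bile acid and steroid synthesis in liver and gonad, and in ESCs it binds regulatory regions of Oct4 and other pluripotency genes.

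The half-site is known in a T variant, TCAAGGTCA, and a C variant, TCAAGGCCA, and exact matches to either were searched on both strands of RefSeq promoter windows (GRCm38.p6, the build also called mm10), each running from 250 bases before to 50 bases after an annotated start. The variants do not overlap each other, since they differ in the 7th letter. Over all 32851 windows, 0.423% held the T variant and 0.591% the C variant. Among genes whose RNA was lower in −E than in −N, 192 of 265 could be matched to a window by symbol, and 4 of these (2.08%) held the C variant while 0 held the T variant. Among genes higher in −E, 269 of 426 had a window. Of those, 1 held the T variant and 1 held the C variant, which is 0.372% each. Of 11200 tested genes with a window, 0.312% held the T variant and 0.500% the C variant. These counts are too few to describe more than the windows themselves, and the 6 genes were picked once their values were known. The 4 windows of genes lower in −E are printed because they carry the C variant of the half-site that both TFs recognise. In the study, binding of Esrrb favoured T at the 7th letter, while that of Nr5a2 favoured C more clearly. The windows are given 5′ to 3′ on the strand of the gene, with the C variant or its reverse complement (TGGCCTTGA) in capitals. They lie at chr8:43306960-43307259, minus strand (Zfp42, first capital 218 bases before the start), chr5:148392766-148393065, minus strand (Slc7a1, 246 bases before), chr5:37050607-37050906, plus strand (Jakmip1, 128 bases before) and chr9:119088212-119088511, minus strand (Plcd1, 206 bases before).
Zfp42 promoter: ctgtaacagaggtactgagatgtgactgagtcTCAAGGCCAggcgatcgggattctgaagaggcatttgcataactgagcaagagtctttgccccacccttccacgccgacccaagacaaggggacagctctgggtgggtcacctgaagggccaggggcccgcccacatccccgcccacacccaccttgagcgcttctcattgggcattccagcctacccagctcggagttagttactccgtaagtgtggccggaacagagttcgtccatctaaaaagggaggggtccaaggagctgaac
Slc7a1 promoter: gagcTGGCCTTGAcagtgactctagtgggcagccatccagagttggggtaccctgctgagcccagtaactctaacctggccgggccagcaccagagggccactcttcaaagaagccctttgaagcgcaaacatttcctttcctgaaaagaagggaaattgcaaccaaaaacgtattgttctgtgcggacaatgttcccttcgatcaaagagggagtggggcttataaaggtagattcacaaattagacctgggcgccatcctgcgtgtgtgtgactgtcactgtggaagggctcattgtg
Jakmip1 promoter: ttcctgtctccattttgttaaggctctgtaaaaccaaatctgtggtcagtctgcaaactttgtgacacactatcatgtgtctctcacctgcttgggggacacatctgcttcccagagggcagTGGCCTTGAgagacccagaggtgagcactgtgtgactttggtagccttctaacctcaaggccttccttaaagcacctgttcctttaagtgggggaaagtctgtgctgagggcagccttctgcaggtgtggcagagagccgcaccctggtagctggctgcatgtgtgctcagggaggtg
Plcd1 promoter: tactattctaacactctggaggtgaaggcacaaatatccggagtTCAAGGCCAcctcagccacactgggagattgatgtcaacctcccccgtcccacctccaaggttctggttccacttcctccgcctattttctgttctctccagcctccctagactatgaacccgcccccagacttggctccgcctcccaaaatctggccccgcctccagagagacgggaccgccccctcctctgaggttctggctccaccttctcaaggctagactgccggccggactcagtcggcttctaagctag

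Zfp42 (Rex1, a zinc finger protein that marks naive ESCs) was read at 161 and 138 CPM (counts scaled to a common library size, with TMM factors) in the −E libraries and at 425 and 383 CPM in the −N libraries. Slc7a1, a cationic amino acid transporter, was at 38.5 and 41.8 CPM in −E against 74.9 and 111 CPM in −N. Plcd1, a phospholipase C, was at 10.9 and 11.3 CPM in −E against 17.9 and 17.1 CPM in −N. The log2 difference of −E minus −N was −1.43 for Zfp42 (SE 0.09, adjusted p = 4.6e-05), −1.21 for Slc7a1 (SE 0.17, adjusted p = 0.00252), −0.65 for Plcd1 (SE 0.09, adjusted p = 0.00233) and −0.89 for Jakmip1 (SE 0.17, adjusted p = 0.00808). These adjusted p-values, like all below, come from the quasi-likelihood test of edgeR and were adjusted by Benjamini-Hochberg over all tested genes. The windows of genes higher in −E were those of Sgk1, a serum- and glucocorticoid-induced kinase with the T variant in 2 of its 6 windows, and of Chst15, a sulfotransferase with the C variant. Sgk1 was at 264 and 237 CPM in −E against 128 and 99.9 CPM in −N, a log2 difference of 1.14 (SE 0.14, adjusted p = 0.00148). Of these 6 genes, Zfp42 alone passed the limits without each of the 4 libraries in turn. Jakmip1 lost its call without any one of them, Plcd1 without −E replicate 1, −E replicate 2 or −N replicate 1, Slc7a1 and Sgk1 without either −E library, and Chst15 without −E replicate 2.

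The targeted genes were examined first. Esrrb (chromosome 12, 86361117 to 86521628, plus strand, mm10) was read at 75.4 and 66.1 CPM in −E, 221 and 264 CPM in −N, and 279 and 362 CPM in +E+N. It was 3.43-fold lower in −E than in −N (log2 difference −1.78, 95% interval −2.08 to −1.48, adjusted p = 1.14e-04, edgeR), with no overlap between the libraries. Reads of the transgene and of the disrupted endogenous transcript cannot be told apart in these counts. Nr5a2 (chromosome 1, 136842571 to 136960448, minus strand) stood at 20.0 and 19.5 CPM in −E, 27.5 and 26.0 CPM in −N, and 41.0 and 37.1 CPM in +E+N. The disruption of exon 4 leaves a transcript that is still counted, so the Nr5a2 count does not check the −N label. The log2 difference of −E minus −N for Nr5a2 was −0.44 (95% interval −0.63 to −0.24), with an adjusted p of 0.0104 that missed the limit of 0.01. Against +E+N, Nr5a2 RNA was lower in −E (log2 difference −0.98, SE 0.09, adjusted p = 1.33e-04, edgeR). The −E cells therefore held less Nr5a2 RNA as well as less Esrrb RNA than control. For −N minus +E+N the log2 difference of Nr5a2 was −0.55 and did not pass (adjusted p = 0.0212). Per length, on the TPM scale, Esrrb plus Nr5a2 transcripts summed to between 46.8 and 47.7 TPM in −E, between 164 and 204 TPM in −N and between 177 and 262 TPM in +E+N.

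Of 15636 genes tested in FCS/LIF, 691 (4.42%) passed an adjusted p under 0.01 and a fold change over 1.5 between −E and −N. Of these, 426 (2.72% of tested genes) were higher in −E and 265 (1.69%) were lower in −E, and 388 of the former and 249 of the latter are protein-coding. The median fold of the called genes was 2.54 for those higher in −E and 2.10 for those lower. More than 4-fold differences were found for 111 of the 426 and 26 of the 265. All called genes had libraries that did not overlap between the states. This is a weak criterion with 2 libraries a state, since both −E libraries lay above both −N libraries at 29.3% of tested genes and below them at 29.9%. An exact permutation test of 2 against 2 libraries cannot go below p = 0.333, so the calls rest on the spread shared across genes in the fit of 8 libraries. The median log2 difference over all tested genes was −0.01. Each library mattered for the number of calls. Without −E replicate 1 there were 291 calls, without −E replicate 2 there were 175 (81 higher and 94 lower), without −N replicate 1 there were 435, and without −N replicate 2 there were 408. Of the 88 called genes selected by the naming rules, 50 passed without each of the 4 libraries in turn, and the others are given with the library whose absence ended the call, or by the count of their list. Of 9 further called genes named here, Mybl2, Shmt2 and Pvalb passed without each. Blocking on the replicate number gave 1049 calls, among them all 691.

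**Figure D1:**
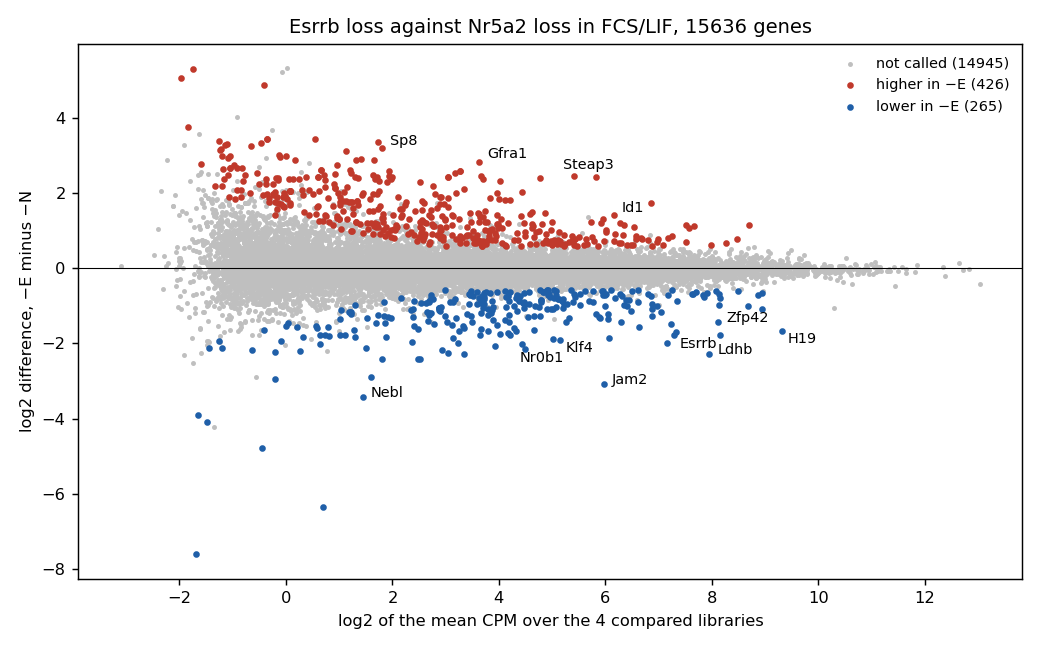
Log2 difference of −E minus −N for each of 15636 tested genes (vertical axis) against the log2 of its mean CPM over the 4 compared libraries (horizontal axis). The 426 called genes higher in −E lie mostly at low to middle levels, while the 265 called genes lower in −E include abundant transcripts such as Ldhb, Zfp42 and H19.

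Depth was similar in the 4 libraries, with totals between 40784467 and 45443379 counts and between 2.12% and 2.47% of counts in mitochondrially encoded transcripts. No counts were recorded for the spike-in sequences in any library. The defining markers of ESCs were present, with Pou5f1 (Oct4) at 1403 and 1352 TPM in −E and 1328 and 1204 TPM in −N. Of the 10 ES cell markers, Klf4, Zfp42 and Fut9 were called lower in −E, beside 1.69% of all tested genes. The call of Fut9 (log2 difference −0.88, adjusted p = 0.0023) ended without −E replicate 2 or −N replicate 2. Markers of mesoderm, fibroblasts and neural cells stayed low beside them, while those of primitive endoderm and trophectoderm, which are given with their lists, were higher. The 10 ES cell markers summed to between 6470 and 6620 TPM in −E and between 6290 and 7470 TPM in −N, while 17 mesoderm and primitive streak markers summed to at most 45.8 TPM, 12 fibroblast markers to at most 30.4 TPM and 15 neural markers to at most 111 TPM in any of the 4 libraries. In such bulk RNA, a change in the share of cells that express a gene and a change in RNA per cell cannot be told apart. The labels do not say that replicates were separate cultures, so p-values measure the spread between these libraries.

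The genes that were lowest in −E relative to −N included adhesion molecules, a transporter and a lactate dehydrogenase. By the rule used for naming (called, at least 100 counts on average, no overlap), the 10 largest falls were Nebl, Jam2, Ly6a, Nupr1, Mymx, Slc47a1, Ldhb, Ntn1, St8sia1 and Ildr1. Jam2 (chromosome 16, 84774123 to 84825928, plus strand), a junctional adhesion molecule, was at 13.5 and 13.1 CPM in −E, 118 and 107 CPM in −N and 128 and 138 CPM in +E+N. It was 8.47-fold lower in −E than in −N (log2 difference −3.08, SE 0.08, adjusted p = 2.47e-07). The −N libraries lay close to the control libraries and the −E libraries far below both.

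Ldhb (chromosome 6, 142490249 to 142507957, minus strand), the lactate dehydrogenase subunit that favours conversion of lactate to pyruvate, was the most abundant of the 10. It was read at 86.2 and 81.9 CPM in −E, 422 and 399 CPM in −N and 535 and 528 CPM in +E+N, and was 4.88-fold lower in −E than in −N (log2 difference −2.29, SE 0.06, adjusted p = 2.47e-07). The paralogue Ldha, the subunit that favours lactate production, stood at 1645 and 1570 CPM in −E against 1393 and 1281 CPM in −N, with a log2 difference of 0.27 that did not pass. Nebl (nebulette, an actin-binding protein) was at 0.334 and 0.581 CPM in −E and 5.04 and 4.86 CPM in −N, a log2 difference of −3.43 (SE 0.26). Ly6a (Sca-1, a surface antigen) was at 0.596 and 0.823 CPM in −E and 5.41 and 5.19 CPM in −N, and Ntn1 (netrin 1, a secreted guidance cue) was at 2.98 and 3.94 CPM in −E and 15.9 and 17.9 CPM in −N. Each of these was close to control in −N: the log2 difference of −N minus +E+N was 0.07 for Nebl, −0.24 for Ly6a and −0.13 for Ntn1.

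The remaining falls were Slc47a1 (a cation exporter), St8sia1 (a ganglioside sialyltransferase) and Ildr1 (a tricellular junction protein), with log2 differences of −2.41, −2.25 and −2.18, and Nupr1 and Mymx at −2.43 and −2.42. Nupr1, a stress-induced nuclear protein, was at 1.69 and 1.82 CPM in −E, but its −N libraries differed, at 6.63 and 12.2 CPM. Its call ended without −E replicate 1 (adjusted p = 0.0376), without −E replicate 2 (0.0383) and without −N replicate 2 (0.0123). The call of Mymx, a muscle fusion peptide gene, ended without −E replicate 2 (adjusted p = 0.0131). On the log2(TPM + 1) scale St8sia1 had a log2 difference of −0.85 and an adjusted p of 0.025 in limma. A few called genes were nearly unread in one state: 4 of those lower in −E had at most 3 counts over both −E libraries, and 3 of those higher in −E had at most 3 counts over both −N libraries. Pvalb, which encodes the calcium buffer parvalbumin and was picked for its values, had 3 and 0 counts in −E, 121 and 156 in −N, 100 and 110 in +E+N and 4 and 1 in −E−N.

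Several naive pluripotency factors were lower in −E than in −N. Of 20 factors tested, 8 were lower and 0 higher, beside 1.69% of all tested genes lower, and their median log2 difference was −0.54. Of the 8 pluripotency genes Pou5f1, Utf1, Sox2, Nanog, Tbx3, Tfcp2l1, Klf4 and Zfp42, 4 were lower and the median was −0.70. These lists were written with earlier results of these data known. The naive count was between 7 and 9 without each library in turn.

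Klf4, a reprogramming factor that acts downstream of LIF, was read at 15.7 and 13.8 CPM in −E, 58.1 and 53.8 CPM in −N and 66.3 and 68.2 CPM in +E+N. It was 3.79-fold lower in −E than in −N (log2 difference −1.92, 95% interval −2.11 to −1.73, adjusted p = 7.18e-06). Tfcp2l1, a Grainyhead-like factor of the naive network, was at 28.6 and 28.9 CPM in −E, 101 and 109 CPM in −N and 126 and 141 CPM in +E+N (log2 difference −1.87, SE 0.07, adjusted p = 3.24e-06). Both −N libraries of these genes lay below both control libraries, and both −E libraries far below either. Nr0b1 (Dax1), an atypical nuclear receptor without a DNA-binding domain that partners Oct4 and Nr5a2, was at 9.08 and 7.38 CPM in −E, 41.1 and 32.4 CPM in −N and 54.4 and 49.8 CPM in +E+N. Its log2 difference of −2.16 (SE 0.14, adjusted p = 5.12e-05) was the largest of the list. Tcl1, an Akt co-activator, was at 8.79 and 8.08 CPM in −E against 29.2 and 26.3 CPM in −N. Zfp57, which protects methylation of imprinted loci, was at 82.7 and 80.1 CPM in −E against 186 and 180 CPM in −N, and Mybl2, a cell cycle regulator, at 284 and 264 CPM against 562 and 532 CPM.

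Tbx3, a T-box factor, was lower in −E with less certainty. It was at 13.7 and 15 CPM in −E, 25.8 and 33.8 CPM in −N and 43.5 and 58.8 CPM in +E+N, and its call (log2 difference −1.06, SE 0.18, adjusted p = 0.00545) ended without −E replicate 1 (adjusted p = 0.0483), without −E replicate 2 (0.0367) and without −N replicate 2 (0.0245). The core factors did not pass. Pou5f1 had a log2 difference of 0.06 (SE 0.09), Sox2 of −0.24 (SE 0.10), Nanog of −0.34 (SE 0.11) and Utf1 of −0.31. Klf2 and Dppa3, at −0.55 and −0.53, stayed under the fold limit.

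Of 17 genes of the LIF and Stat3 pathway, 3 were lower in −E, beside 1.69% of all tested genes, and 0 higher, with a median of −0.20. The 3 were Klf4, Tfcp2l1 and Lifr, which encodes the LIF receptor. Lifr was at 51.1 and 46.5 CPM in −E against 81.3 and 77.4 CPM in −N (log2 difference −0.70, SE 0.06, adjusted p = 2.88e-04), but on the log2(TPM + 1) scale the difference was −0.22 with an adjusted p of 0.563 in limma. Stat3, the transducer itself, had a log2 difference of 0.07, and Socs3, its feedback inhibitor, of −0.45, and neither passed. Of 26 nuclear receptors tested besides Esrrb and Nr5a2, Nr0b1 alone passed, beside 4.42% of all tested genes. The closest relative of Esrrb that was tested, Esrra, was at −0.45 and did not pass. Of 18 known targets of Nr5a2 in liver and gonad, 6 were tested and none passed, with log2 differences from −0.50 to 0.28.

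**Figure D2:**
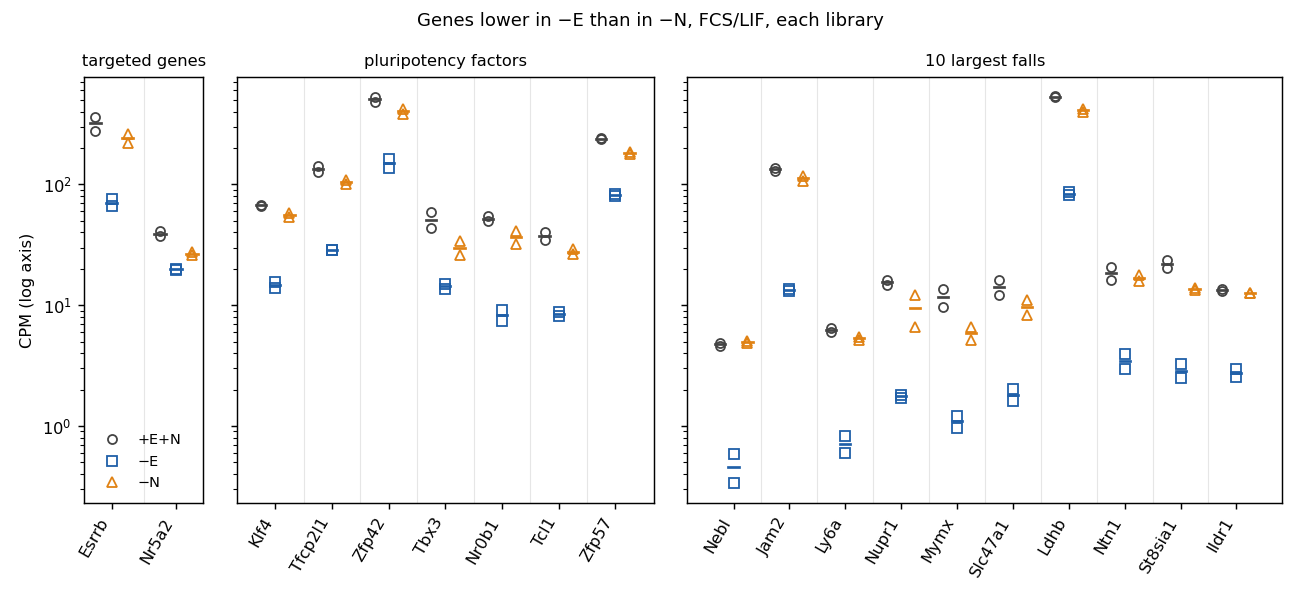
CPM on a log axis of each FCS/LIF library for the targeted genes, 7 pluripotency factors and the 10 largest falls, with circles for +E+N, squares for −E, triangles for −N and a bar at the mean of each pair. The −E libraries lie below both other states at every gene shown, with Klf4 at 15.7 and 13.8 CPM against 58.1 and 53.8 CPM in −N.

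Some factors of the formative and primed epiblast, the state that follows naive pluripotency, were higher in −E. Of 23 tested, 8 were higher, beside 2.72% of all tested genes higher, 2 were lower and 13 did not pass, with a median log2 difference of 0.41. Sox3, a neural and epiblast Sox factor, was at 13.2 and 12.6 CPM in −E, 3.90 and 3.15 CPM in −N and 3.77 and 2.78 CPM in +E+N (log2 difference 1.87, SE 0.17, adjusted p = 2.88e-04). Fgf5, the standard marker of the primed epiblast, was at 10.9 and 10.6 CPM in −E, 3.78 and 3.30 CPM in −N and 2.39 and 2.66 CPM in +E+N (log2 difference 1.61, SE 0.13). The −N libraries lay near the control ones, and slightly above them for Fgf5. Sall2, Epha1 and Pou3f1 (Oct6), at 1.48, 1.31 and 1.09, were the other large rises, followed by Lef1, Cdh2 and Grhl2 at 0.71, 0.67 and 0.59. Grhl3, an epithelial Grainyhead factor, and Tcf15, a formative bHLH factor, were lower instead, at −1.19 and −0.86. Otx2, with 33.8 and 31.2 CPM in −E and 34.6 and 34.4 CPM in −N, had a log2 difference of −0.08 that did not pass. Without −E replicate 1, 5 of the list were called higher in place of 8. The call of Cdh2 ended without −E replicate 1, −E replicate 2 or −N replicate 1 (adjusted p = 0.0245, 0.047 and 0.0224), that of Tcf15 without −E replicate 2 (0.0137), and that of Grhl2 without −E replicate 1 (0.0134) or −N replicate 2, where it fell under the fold limit.

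Among ligands, Nodal was higher in −E, at 92.6 and 97.6 CPM against 52.9 and 48.5 CPM in −N and 64.3 and 68.4 CPM in +E+N (log2 difference 0.91, SE 0.07, adjusted p = 1.26e-04). Bmp4 was lower, at 3.84 and 4.11 CPM against 10.5 and 7.85 CPM (log2 difference −1.20, SE 0.17), and lost its call without either −E library (adjusted p = 0.0267 and 0.0241). Of 19 genes of the Nodal and activin pathway, 3 were higher and 2 lower, beside 2.72% and 1.69% of all tested genes. Higher with Nodal were Fst, the activin inhibitor follistatin, at 1.22, and Skil, a Smad corepressor, at 0.67. Lefty2, a Nodal inhibitor, was lower at −0.77, and so was Pcsk6, a convertase that matures Nodal, at 6.36 and 8.45 CPM in −E against 24.9 in each −N library (log2 difference −1.75, SE 0.13). The receptors Acvr1b, Acvr2a and Acvr2b and the transducers Smad2 and Smad3 had log2 differences between −0.07 and 0.03. The call of Fst ended without −E replicate 2 (adjusted p = 0.0154).

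Id1, a Bmp target that inhibits bHLH factors, was at 97.6 and 109 CPM in −E, 41.9 and 36.1 CPM in −N and 43.5 and 37.8 CPM in +E+N, a log2 difference of 1.40 (SE 0.10, adjusted p = 6.81e-05). Of 17 genes of the Bmp pathway tested, 2 were higher and 1 lower, beside 2.72% and 1.69% of all tested genes. Higher were Id1 and the homeobox gene Msx1, which is also in the Wnt list below, and Bmp4 was lower. Id2, Id3 and Id4 had log2 differences of 0.23, 0.43 and 0.66 and did not pass.

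Of 21 Wnt targets and feedback genes, 5 were higher and 1 lower, beside 2.72% and 1.69% of all tested genes, with a median of 0.28. Sp8 and Sp5, zinc finger factors induced by Wnt, were among the 5, together with Msx1, Wnt8a and Lef1. Sp8 (chromosome 12, 118846329 to 118852576, plus strand) was at 5.60 and 6.87 CPM in −E, 0.780 and 0.594 CPM in −N and 0.834 and 0.754 CPM in +E+N, the largest rise named (9.08-fold, log2 difference 3.18, SE 0.20, adjusted p = 4.95e-05). Msx1 was at 5.69 and 6.63 CPM in −E against 1.39 and 1.14 CPM in −N (log2 difference 2.28, SE 0.19). Notum, a Wnt inhibitor, was lower at −0.87 but lost its call without −E replicate 1, −E replicate 2 or −N replicate 1 (adjusted p = 0.0229, 0.0595 and 0.0261). The call of Sp5 ended without −E replicate 2 (0.0163), that of Lef1 without either −E library (0.0127 and 0.0228), and that of Wnt8a without any one library (0.0131 to 0.0307). Axin2, the general reporter of the pathway, had a log2 difference of 0.57 that did not pass.

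By the naming rule, the 10 largest rises were Sp8, Tmem92, Gfra1, Usp17le, Usp17la, Steap3, Tmem72, Usp17lc, Calcoco2 and Il33, after 10 unnamed gene models were passed over. Their control values, read side by side from the same fit, were of 3 kinds by size, though not every difference from control passed. Gfra1, a receptor of glial cell line-derived neurotrophic factor, was at 20.0 and 23.5 CPM in −E, 2.51 and 3.59 CPM in −N and 2.45 and 4.17 CPM in +E+N. For Gfra1, Sp8 and Il33 (a nuclear cytokine), −N stayed near control, with log2 differences of −N minus +E+N of −0.12, −0.21 and −0.02. In contrast, Steap3 (chromosome 1, 120190757 to 120272705, minus strand), an endosomal ferrireductase, was at 70.2 and 73.1 CPM in −E, 49.8 and 45.7 CPM in +E+N and only 12.3 and 14.1 CPM in −N. Calcoco2, an autophagy receptor, was at 97.6 and 93.2 CPM in −E, 91.7 and 56.8 CPM in +E+N and 22.5 and 13.3 CPM in −N. The log2 difference of −N minus +E+N was −1.86 for Steap3 (adjusted p = 6.19e-05) and −2.05 for Calcoco2, which missed the limit (adjusted p = 0.014). For the other 5, Tmem92, Tmem72 and the Usp17l genes, log2 differences ran from 1.45 to 1.73 for −E minus +E+N and from −1.16 to −0.86 for −N minus +E+N. On the −N side none passed (adjusted p = 0.147 to 0.241), and Tmem72 also missed the limit on the −E side (0.0154). The calls of Tmem92, Usp17la, Usp17lc and Tmem72 ended without −E replicate 2 (adjusted p = 0.0108, 0.0137, 0.0165 and 0.0198), those of Usp17la, Usp17lc and Tmem72 also without −N replicate 2 (0.0102, 0.0105 and 0.0161), and that of Tmem72 also without −N replicate 1 (0.0107).

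Of the 691 genes called between −E and −N, 15 were also called between −N and +E+N. The same −N libraries enter both comparisons, so shared calls are favoured in advance. The number called between −N and +E+N over all tested genes is not given here. The 6 with the largest change in −N were Lctl, Dpp4, H19, Ddr2, Steap3 and Aass. Lctl, a lactase-like glycosidase, was at 2.31 and 2.03 CPM in −E, 2.99 and 2.76 CPM in +E+N and 0.390 and 0.418 CPM in −N. It was 5.34-fold higher in −E than in −N (log2 difference 2.42, SE 0.24, adjusted p = 4.61e-04). Dpp4, a cell surface dipeptidase, was at 11.2 and 11.1 CPM in −E, 14.2 and 12.7 CPM in +E+N and 2.97 and 2.68 CPM in −N (log2 difference 1.98, SE 0.14, adjusted p = 6.81e-05). For Lctl and Dpp4, −E lay near control and −N stood apart, and the change in −N was part of their selection. Ddr2, a collagen receptor, was at 2.00 and 1.86 CPM in −E and 0.780 and 0.682 CPM in −N, and its call ended without any one of the 4 libraries (adjusted p = 0.0151 to 0.0348). Aass, which begins lysine degradation, was the reverse, at 18.2 and 17.5 CPM in −E, 11.2 and 10.7 CPM in +E+N and 38.6 and 33.9 CPM in −N (log2 difference −1.02, SE 0.10).

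**Figure D3:**
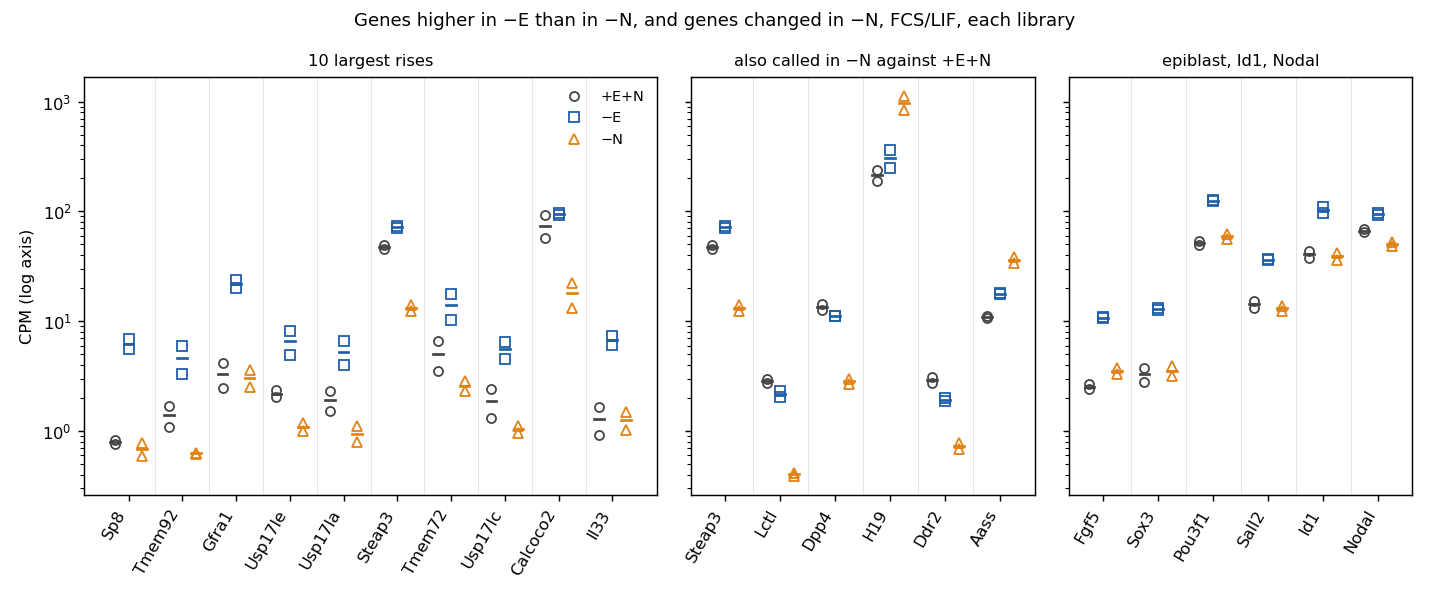
CPM on a log axis of each FCS/LIF library for the 10 largest rises, the 6 genes also called in −N against +E+N, and epiblast factors with Id1 and Nodal, with circles for +E+N, squares for −E, triangles for −N and a bar at the mean of each pair. For Sp8, Gfra1 and Il33 the −E libraries stand above both other states, while for Steap3, Lctl, Dpp4 and Calcoco2 the −N libraries stand below both.

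H19, the maternally expressed imprinted RNA next to Igf2 (chromosome 7, 142575529 to 142578143, minus strand), was at 246 and 363 CPM in −E, 187 and 238 CPM in +E+N and 834 and 1120 CPM in −N. It was 3.20-fold lower in −E than in −N (log2 difference −1.68, SE 0.21, adjusted p = 0.00148), and the call ended without −E replicate 1 (adjusted p = 0.0107). Of 44 imprinted genes tested, 5 were higher in −E and 3 lower, beside 2.72% and 1.69% of all tested genes, with a median of 0.04. Mest was lower with H19, at 39.9 and 45.0 CPM in −E, 35.4 and 36.8 CPM in +E+N and 124 and 106 CPM in −N (log2 difference −1.44, SE 0.09, adjusted p = 4.6e-05). The genes Cdkn1c and Phlda2, growth inhibitors of one imprinted domain, were higher in −E, at 161 and 193 CPM against 50.3 and 57.1 CPM for Cdkn1c and 42.3 and 43.2 CPM against 15.6 and 15.2 CPM for Phlda2. In −N both lay below control, with log2 differences of −N minus +E+N of −0.84 for Cdkn1c, which missed the limit (adjusted p = 0.0361), and −1.07 for Phlda2 (0.00959). Cdkn1c, at 92.2 and 100 CPM in +E+N, was also above control in −E (log2 difference 0.88, adjusted p = 0.00464). Phlda2 in −E was at 0.40 from control and did not pass (0.0524). Other genes of that domain went the other way or did not pass: Ascl2 was lower in −E, at −0.99, and Kcnq1ot1 was at −0.90 with an adjusted p of 0.0256. Magel2, higher at 1.21, lost its call without any one library (adjusted p = 0.0104 to 0.0401).

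The set of genes known for a brief peak at the two-cell stage of the embryo had the highest median of any list. Of 15 tested, 11 were higher in −E, beside 2.72% of all tested genes, and 0 lower, and their median log2 difference was 2.01. Zscan4f, of a family that acts at telomeres, was at 26.1 and 43.4 CPM in −E and 9.35 and 7.85 CPM in −N (log2 difference 2.01, SE 0.32, adjusted p = 0.00414). Usp17lc, a deubiquitinase, was at 4.57 and 6.49 CPM in −E, 1.10 and 0.968 CPM in −N and 1.32 and 2.40 CPM in +E+N. For Usp17lc, Zscan4f, Tmem92 and Gm4340, −E replicate 2 lay above −E replicate 1, and both lay above the −N libraries. The number of members called was 10 without −E replicate 1, 0 without −E replicate 2, 5 without −N replicate 1 and 2 without −N replicate 2, and limma on log2(TPM + 1) called 6. Zscan4 and Usp17l genes are near-identical copies between which shared reads were divided by estimation, so the members are not separate observations.

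Genes of the mitochondrial and amino acid stress response were taken as a list because doxycycline acts on mitochondrial translation and only −N cells carried it here. Of 26 tested, 9 were lower in −E, beside 1.69% of all tested genes, and 0 higher, with a median log2 difference of −0.67. Trib3, a pseudokinase induced by Atf4, was at 9.74 and 10.1 CPM in −E, 24.6 and 28.6 CPM in −N and 41.8 and 30.8 CPM in +E+N (log2 difference −1.42, SE 0.15, adjusted p = 6.85e-04). Mthfd2, a mitochondrial folate enzyme, was at 56.8 and 54.6 CPM in −E against 120 and 123 CPM in −N (log2 difference −1.13, SE 0.11). Nupr1, Pck2, Chac1, Psat1, Asns, Slc7a5 and Shmt2 were the other 7, and Atf4 itself, at −0.42, did not pass. The count was 4 without −E replicate 1, 2 without −E replicate 2, 11 without −N replicate 1 and 7 without −N replicate 2, and 5 in limma on log2(TPM + 1). Without −E replicate 2 the adjusted p of Trib3 was 0.0102. In 2i/LIF, where Dox differs between the states in the same way, 0 of 26 passed and the median was 0.04. The part of Dox in the FCS/LIF differences was not tested. The 13 mitochondrially encoded genes had log2 differences from −0.47 to 0.02, and none passed.

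Transcripts of single enzymes of glucose metabolism were lower in −E. Of 27 genes of glycolysis and pyruvate metabolism, 4 were lower, beside 1.69% of all tested genes, and 0 higher, with a median of −0.11. Beside Ldhb these were Pfkp, the platelet-type phosphofructokinase, at 49.7 and 50.2 CPM in −E against 137 and 160 CPM in −N (log2 difference −1.57, SE 0.09, adjusted p = 4.6e-05), Hk1, a hexokinase, at −1.33 and Pdk1, a kinase that inhibits pyruvate dehydrogenase, at −0.91. The call of Pdk1 ended without −E replicate 2 (adjusted p = 0.0141). The isoforms Pfkl and Hk2 had log2 differences of 0.38 and −0.16 and did not pass. All 24 genes of cholesterol synthesis and uptake had log2 differences below 0, from −0.50 to −0.02, and none passed the limits.

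Markers of other cell types that the cultures could hold were read next. Of 16 primitive endoderm markers tested, 4 were higher in −E (Cubn, Dab2, Sox17 and Sparc), beside 2.72% of all tested genes, and 0 lower, with a median of 0.60, and the list summed to between 753 and 777 TPM in −E and between 646 and 662 TPM in −N. Gata4 and Gata6, which define that lineage, did not pass, at 0.74 and 0.55. Cubn, an endocytic receptor, was at 28.2 and 26.0 CPM in −E against 7.26 and 8.10 CPM in −N (log2 difference 1.82, SE 0.16), and Sox17 lost its call without any one library (adjusted p = 0.0121 to 0.0461). Of 15 trophectoderm markers, 2 were lower in −E, Esx1 and Ascl2, beside 1.69% of all tested genes, with a median of −0.66. That list summed to between 462 and 621 TPM in −E, between 658 and 924 TPM in −N and between 326 and 389 TPM in +E+N. The keratins Krt8 and Krt18 made up most of it, with log2 differences of −0.55 and −0.63 that did not pass. None of the 12 mesoderm and primitive streak markers and none of the 10 fibroblast markers tested passed. Their part in the differences described above was not tested. Esx1 lost its call without −E replicate 1, −E replicate 2 or −N replicate 2 (adjusted p = 0.025, 0.0144 and 0.0111), and Sparc without −E replicate 1, −E replicate 2 or −N replicate 1 (0.0117, 0.0288 and 0.0138). Of 17 germline genes, Mael was higher and Kit and Rhox5 were lower, of 9 neural markers Nes was higher and Tubb3 lower, and of 7 maternal complex genes Nlrp4f was lower. Among all tested genes 2.72% were higher and 1.69% lower, and so few calls in short lists say little about the lists. The calls of Tubb3, Rhox5 and Nlrp4f ended without either −E library (adjusted p = 0.012 to 0.0393), those of Rhox5 and Nlrp4f also without −N replicate 2 (0.0121 and 0.0175), and that of Mael without −E replicate 2 (0.0165).

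**Figure D4:**
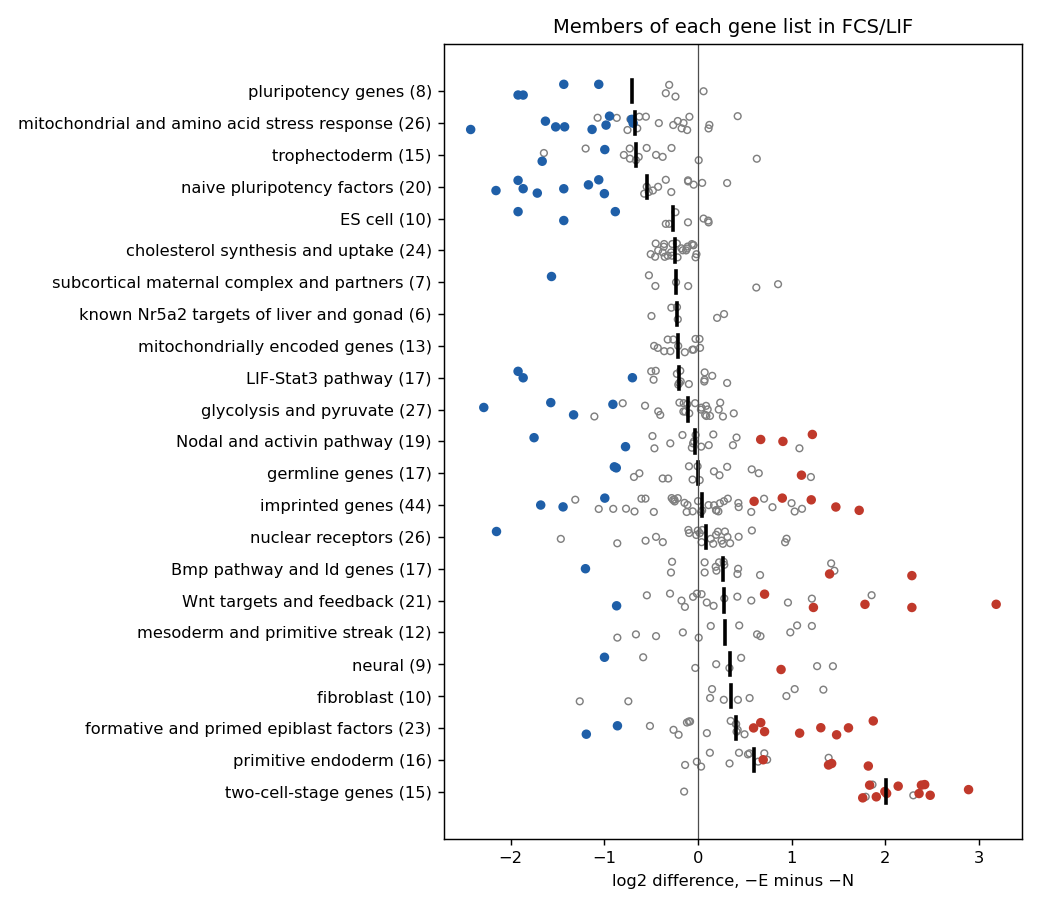
Log2 difference of −E minus −N in FCS/LIF (horizontal axis) of each tested member of the gene and marker lists, with the number tested in parentheses, filled points for called members (blue lower, red higher in −E) and a black bar at the median. Medians run from −0.70 for the pluripotency genes to 2.01 for the two-cell-stage genes.

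Because −N cells are of a derived line, values that could mark the line were read. None of 8 Y-linked genes had a count in any of the 4 libraries. Over genes with at least 100 counts on average, the median log2 difference of each chromosome of −E minus −N lay between −0.062 (chromosome 8, 651 genes) and 0.028 (X, 437 genes), leaving out Y, where 2 genes outside that list were counted. On chromosome 8, picked for its lowest median, 22 genes were called lower in −E and 7 higher. Over all 12021 genes at that count level, 233 were called lower in −E and 294 higher. The chromosome 8 median of −N minus +E+N was 0.037, while those of the other chromosomes lay between −0.029 and 0.009. Whether the NrKO line differs there was not tested.

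The same comparison in 2i/LIF rests on libraries that share none with FCS/LIF, though both used EKOiE and EKOiE NrKO cells. There 565 of 14355 genes (3.94%) were called, 316 (2.2%) higher in −E and 249 (1.73%) lower. Same-numbered libraries deviated together in 2i/LIF. Values for 2i/LIF and between media come from fits without that pairing unless a block is named. Blocking on the number gave 1241 calls in 2i/LIF. Without each of the 6 libraries in turn, calls ran from 336 (without −E replicate 2 or −N replicate 2) to 478 (without −E replicate 1), with 373 without −E replicate 3, 355 without −N replicate 1 and 450 without −N replicate 3. Esrrb did not pass the test there, at 440, 426 and 375 CPM in −E and 406, 522 and 519 CPM in −N (log2 difference −0.22, SE 0.16, adjusted p = 0.404), so the Esrrb count does not check the −E label in 2i/LIF. Of the 691 genes called in FCS/LIF, 568 were tested in 2i/LIF, and 65 of these (11.4%) were called there in the same direction, 40 lower and 25 higher. These are 12.4% of the 525 genes called in 2i/LIF that were tested in FCS/LIF. A further 11 were higher in −E in FCS/LIF and lower in 2i/LIF, and 0 were the reverse. Across the 13844 genes tested in both media, which are not independent replicates, the log2 differences had a Pearson r of 0.124.

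The difference of the comparison between media was itself tested over all 20 libraries, and 467 of 16147 genes (2.89%) passed an adjusted p under 0.01. Of these, 260 (1.61% of tested genes) lay above 0 and 207 (1.28%) below 0. Among the 467, 157 were called in FCS/LIF, whose libraries enter both tests, so shared calls are favoured in advance. Of the genes also called in FCS/LIF, Sp8, Lpar4, Gpx4, H19 and Triml2 were among those with the smallest adjusted p between media. Sp8 was higher in −E in FCS/LIF and lower in 2i/LIF, at 1.93, 1.77 and 1.43 CPM in −E against 5.23, 3.92 and 5.43 CPM in −N there, so that the differences stood 4.69 apart on the log2 scale (adjusted p = 1.23e-07). H19 was lower in −E in both media, and by far more in 2i/LIF, at 3.57, 2.69 and 5.33 CPM in −E against 265, 241 and 229 CPM in −N (log2 difference −5.98, SE 0.32). Gpx4, a peroxidase that guards lipids, was at 321 and 312 CPM in −E and 723 and 609 CPM in −N in FCS/LIF (log2 difference −1.07), and differed by 0.09 in 2i/LIF. Lpar4 (a lysophosphatidic acid receptor) had a log2 difference of 0.84 in FCS/LIF and −1.62 in 2i/LIF. The FCS/LIF call of Lpar4 ended without −E replicate 1, −E replicate 2 or −N replicate 1 (adjusted p = 0.0253, 0.0621 and 0.0223). Triml2 was at −1.09 in FCS/LIF and 0.02 in 2i/LIF. The number of genes that passed fell to 187 without FCS/LIF −E replicate 1, 117 without FCS/LIF −E replicate 2, 169 without FCS/LIF −N replicate 1, 201 without FCS/LIF −N replicate 2, 309 without 2i/LIF −E replicate 2 and 299 without 2i/LIF −N replicate 2, and rose to 1441 with the block. Medium and culture batch cannot be told apart.

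The naive factors differed between media in size. Klf4 had a log2 difference of −1.92 in FCS/LIF and −0.10 in 2i/LIF, Tfcp2l1 of −1.87 and −0.36, and Zfp42 of −1.43 and 0.18, and for each the difference between media passed (adjusted p = 7.01e-05, 2.03e-04 and 2.38e-05, edgeR). Tcl1 was lower in −E in both, at −1.72 and −1.34. Other falls were alike in sign in both media: Nebl at −3.43 and −4.11, Ldhb at −2.29 and −3.41, Ntn1 at −2.29 and −2.59, and Ly6a at −2.90 and −2.19, and the differences between media did not pass (adjusted p from 0.0132 to 0.78). Ldhb was at 12.3, 11.4 and 8.26 CPM in −E and 140, 97.1 and 102 CPM in −N in 2i/LIF. Genes low in −N also kept their sign. Steap3 had a log2 difference of 2.44 in FCS/LIF and 2.24 in 2i/LIF, Calcoco2 of 2.42 and 2.44, Lctl of 2.42 and 1.92 and Dpp4 of 1.98 and 2.14, each called in both. Steap3 was at 106, 98.4 and 99.6 CPM in −E and 15.8, 21.4 and 27.1 CPM in −N in 2i/LIF. Ddr2 was higher in −E in both, at 1.40 and 4.79. No two-cell-stage gene of 14 tested was called in 2i/LIF, with a median of −0.91, and 11 of 15 were called in FCS/LIF.

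**Figure D5:**
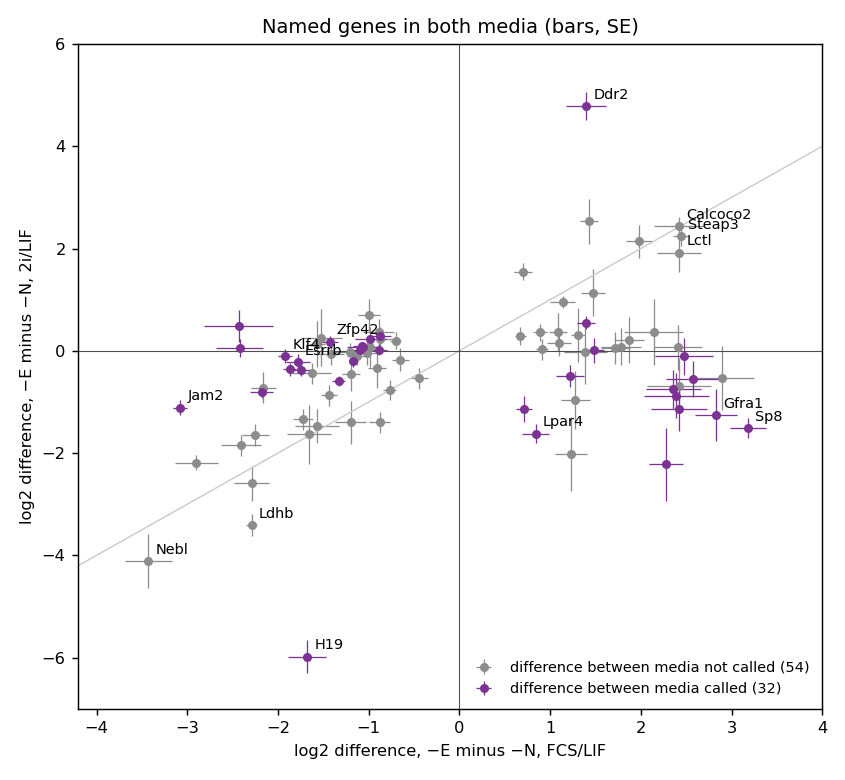
Log2 difference of −E minus −N in FCS/LIF (horizontal axis) and 2i/LIF (vertical axis) for 86 genes selected by the naming rules, with bars for the SE and a grey line at equality, and purple where the difference between media passed an adjusted p of 0.01 (32 genes). Nebl, Steap3 and Calcoco2 lie near the line, Klf4 and Zfp42 near 0 in 2i/LIF, and Sp8 and Gfra1 on opposite sides of 0, though Gfra1 was not called in 2i/LIF.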

How the data were processed

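RNA-seq of 20 libraries was used. The authors aligned paired-end reads of 150 bases to mm10 with STAR and estimated counts with RSEM, and the deposited expected counts are whole numbers without normalization between libraries. The authors also deposited TPM values, which sum to the same total in each library. Of 54238 rows, 92 are spike-in sequences and were left out, and 54079 gene IDs matched GENCODE M21, the source of coordinates. Library totals ran from 36514172 to 45443379 counts in FCS/LIF and from 26653035 to 32526534 for 2i/LIF, so that the precision of a gene follows its count, with a median SE of the log2 difference of 0.09 at a mean of 100 counts or more and 0.12 over all tested genes. ChIP-seq was not analysed here.

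A gene was tested if every replicate of some state held 20 counts or more, with edgeR 4.0.16 (R 4.3.3, TMM, quasi-likelihood test), with all 8 FCS/LIF libraries in 1 fit, all 12 libraries of 2i/LIF in another, and all 20 as 8 groups for the difference between media. Calls required an adjusted p under 0.01 and, except between media, a fold change over 1.5. Alternatives were DESeq2 1.42.0 (the test in the study's methods), its size factors, no filter, the replicate number as a block, the 4 libraries alone, limma 3.58.1 with pseudocounts of 1 or 0.1 added to TPM before the log2, other thresholds and leaving out each library. In simulated data of the FCS/LIF comparison over 15264 genes, changes were planted only in genes averaging 100 counts or more. Of these, 87 of 100 with a log2 change of 1 and all 100 with a log2 change of 2 were recovered. Among unchanged genes 2 were called, and recovery at lower counts was not simulated. The simulated counts were drawn with the spread that edgeR had fitted and without a replicate effect. They therefore do not give the error rate of the real calls. In 2i/LIF the deviations of same-numbered −E and −N libraries correlated at 0.488, 0.196 and 0.484 over 12542 genes. The main fits did not use this pairing, and the replicate number entered only in the alternative with the block. What same-numbered libraries share is not given in the sources used here.

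Genes named are the targeted genes; the 10 largest falls and rises among calls averaging 100 counts or more without overlap; the 6 most changed in −N among those called in both; called members of fixed lists, at most 6 a list, with defining members by value; and, of calls in FCS/LIF, the 6 smallest adjusted p between media, of which 1 is not reported here. Unnamed gene models were passed over. The members and lists were chosen with earlier results of these data known. Further members of the lists, Pvalb and the genes with a promoter motif were added with their values in view.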

Additional observations from a re-analysis of the deposited data

Results flagged for a closer look

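For 33 of the 89 genes selected by the naming rules, the difference of −E minus −N itself differed between media. The limit was an adjusted p under 0.01 in the fit of 20 libraries (edgeR's quasi-likelihood test). Over all tested genes, 467 of 16147 (2.89%) passed. The named genes were chosen on FCS/LIF libraries that also enter this test, and some by its adjusted p, so a high count was favoured in advance. The values here are the log2 difference in FCS/LIF minus that in 2i/LIF, and medium and culture batch cannot be told apart. Among targeted genes and pluripotency factors the value was −1.55 for Esrrb, −1.81 for Klf4, −1.5 for Tfcp2l1, −1.61 for Zfp42, −1.12 for Tbx3 and −0.97 for Zfp57. The log2 difference of each was further below 0 in FCS/LIF than in 2i/LIF, where that of Zfp42 was 0.18 and that of Tbx3 0.07. The falls Jam2, Nupr1, Mymx and Ildr1 differed by −1.96, −2.91, −2.48 and −1.38, and Ddr2, which was higher in −E by more in 2i/LIF, by −3.38.

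Among genes higher in −E in FCS/LIF, the value was 4.69 for Sp8, 4.09 for Gfra1, 4.51 for Msx1, 1.86 for Lef1, 2.75 for Fgf5, 1.47 for Sall2, 1.72 for Fst, 0.86 for Id1 and 2.47 for Lpar4. Fgf5 was tested in the fit of both media, but not in 2i/LIF alone, where its counts were under the filter. Gfra1 (log2 difference −1.25, adjusted p = 0.132) and Msx1 (−2.22, adjusted p = 0.0604) were not called in 2i/LIF alone. There no library of either exceeded 2.25 CPM. Of the two-cell-stage genes and their relatives, Usp17la, Usp17lc, Usp17ld, Usp17le and Gm4340 differed by 2.59, 3.55, 3.11, 3.13 and 3.27. None of these genes was called in 2i/LIF alone. H19 differed by 4.31. It was lower in −E than in −N in both media, and by less in FCS/LIF, where −E did not lie below +E+N.

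The remaining values were −1.36 for Pcsk6, −1.21 for Psat1, −0.73 for Hk1, −0.91 for Kit, −1.15 for Rhox5, −1.16 for Gpx4 and −1.1 for Triml2.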

How the results depend on the processing

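In FCS/LIF, the 691 calls became 1431 with no filter on low counts, 349 and 382 in limma on log2(TPM + 1) and log2(TPM + 0.1), 1246 at an adjusted p under 0.05, 1049 with the replicate number as a block, and from 175 to 435 without single libraries. Of the 349, 331 were among the 691. With 2 libraries a state, the deviations of same-numbered FCS/LIF libraries give a single correlation, which was 0.174. Nothing says what a number marks there. In 2i/LIF, the 565 calls became 931 in DESeq2, 888 with no filter, 1241 with the block and from 336 to 478 without single libraries. For the difference between media, the 467 became 955 in DESeq2, 1337 with no filter, 1441 with the block and from 117 to 470 without single libraries. No other setting moved these counts by over 1.5 times, and the cause of these changes was not tested beyond the number of genes and libraries in each fit. For the 89 genes selected by the naming rules, no setting turned a direction. All 88 called stayed called in DESeq2 and with the block, 83 in the 4 libraries alone and 68 in limma on log2(TPM + 1). The median SE of the log2 difference was 0.09 at a mean of 100 counts or more and 0.12 over all tested genes.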
